A study of Homo sapiens with 12 samples.

Results

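The replication-dependent histone genes are the clustered genes that make the linker histone H1 and the core histones H2A, H2B, H3 and H4 for packing newly copied DNA. They were chosen by symbol (H1-1 to H1-5, or H2AC, H2BC, H3C or H4C followed by a number) among the 63677 genes of a count table from HCT116 cells, and kept where the mean was at least 5 reads per library. Of 68 such symbols, 36 had a gene in the table, and 17 of these met the minimum: H1-2 and H1-4 among the H1 genes, 5 H2A genes, 7 H2B genes, H3C4 and H3C12 among the H3 genes, and H4C16 as the single H4 gene. Another 32 symbols were not matched by identifier and are not analysed here. Just inside the minimum were H3C12 at 5.17 and H4C16 at 5.83 reads per library, and just outside was H4C8 at 3.92. Of the 19 genes below it, 9 had no read in any library. Of the 17 genes, 12 lie on chromosome 6, 4 on chromosome 1 and 1 on chromosome 12.

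These genes are transcribed mainly in S phase, when the activator NPAT works at their promoters, and most of their mRNAs end in a stem-loop bound by SLBP instead of a poly(A) tail. Some of them also give polyadenylated transcripts, which are known from differentiated or non-dividing cells and are made by reading past the stem-loop to a later polyadenylation signal. Many of their promoters carry CCAAT boxes, the sequence bound by NF-Y, a trimer of NFYA, NFYB and NFYC in which NFYA makes the contact with the box. The libraries were made from polyadenylated RNA, so the reads stand for the histone transcripts that entered such a library. The share of stem-loop mRNA among them was not measured.

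HCT116 is an epithelial line from a human colon carcinoma, and all 12 libraries come from it, 72 h after transfection. Mock cells went through transfection with no siRNA, and siControl cells received a non-targeting siRNA. The siTotal1 and siTotal2 cells received siRNAs against all NFYA transcripts, and the siLong1 and siLong2 cells received siRNAs against those NFYA transcripts whose 3′ untranslated region is the longest, with NFYA siRNAs and the control at 62.5 nM. Each of the 6 groups had 2 libraries, described as biological duplicates, so that a p-value here measures the spread between 2 cultures given one siRNA and not between siRNAs. The labels list the sense strand of the siRNAs for each target without tying the order to the numbers 1 and 2. They are shown because the results turn on the difference between siRNAs to one target, with capitals on the bases that pair with bases 2 to 8 of the guide strand.
siTotal, listed first: acuagaggcagAAGGGAAa
siTotal, listed second: uggugaaggugGACGAUUu
siLong, listed first: agugaucauugUAGGGUAa
siLong, listed second: ggucauuccuuUAGCAUCa

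The libraries held between 35604197 and 49746637 reads, of which the 17 histone genes took between 1332 and 4021. NFYA read 57.4 and 57.5 CPM (read counts scaled to a common library size) in siControl, 47.9 and 46.8 in siTotal1, 46.0 and 46.2 in siTotal2, and 47.65 and 46.5 in siLong1. It read 69.7 and 70.2 in the libraries labelled siLong2, above siControl and against the label, and every direction given for that group is that of the libraries so labelled. The summed level of 8 colon epithelial markers was between 3390 and 5700 CPM in all libraries. Among 6 fibroblast markers, COL1A1 was read at 966 to 1864 reads in every library, while COL1A2, COL3A1, DCN and LUM together had 368 reads in mock replicate 1, 183 and 92 in siTotal2, 77 in siLong2 replicate 2, and 0 to 11 in each of the other 8 libraries. The summed fibroblast markers reached 26.3 to 45.1 CPM in mock, 33.9 to 35.3 in siControl, 27.2 to 31.4 in siTotal1, 42.6 to 44.5 in siTotal2, 29.7 to 34.5 in siLong1 and 36.3 to 38.4 in siLong2. The trace of these 4 markers was highest in mock replicate 1 and uneven between the 2 libraries of mock and of siLong2. It was present in both siTotal2 libraries, so within that group it cannot be told apart from the siRNA. Median changes of the histone genes are given below also without mock replicate 1, siTotal2 replicate 1 and siLong2 replicate 2. That setting was chosen after seeing these reads. Blood, endothelial and neural markers summed to at most 0.613, 1.22 and 0.368 CPM, with PECAM1 at 0. Mitochondrial genes took 3.83% to 4.98% of reads in mock, siControl and siTotal1 and 5.45% to 6.6% in the other groups.

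Promoters of 16 of the 17 genes were found in the RefSeq table for GRCh38.p14, each running from 250 bases before to 50 bases after the transcript start. A CCAAT box, read as CCAAT or its complement ATTGG, stood in 15 of 16, or 93.75%, against 34.6% of all 35116 promoters of the same length. At least 2 boxes stood in 12 of 16, against 10.8% of all promoters, and H2BC12 held 6. The exception was H4C16, whose window held none. TATAAA or TTTATA stood in 75% of the histone windows and 11.5% of all. The octamer bound by OCT1 (POU2F1), ATTTGCAT or ATGCAAAT, stood in 50% against 1.77%. Windows overlap in 3 pairs of genes transcribed away from each other: H2AC6 and H2BC4, H2AC11 and H2BC11, and H2AC20 and H2BC21. In each pair the same octamer was counted for both genes. Other matches where the windows overlap were also counted for both genes. These shares therefore count genes and not separate sites. Such a match describes letters in a window and not a bound site. The CCAAT box nearest the start is shown for 8 genes whose values are given below, with the box in capitals on the coding strand of each gene, because NF-Y is the factor that the siRNAs were designed against.
H1-2 (chr6:26056512-26056538, minus strand, box 57 bases before the start): cgaccagagcaCCAATcagagcgcgcc
H2AC6 (chr6:26124093-26124119, plus strand, 68 bases before): tttgctaccgaCCAATcaaaaagtcgg
H2AC25 (chr1:228457924-228457950, minus strand, 66 bases before): accatagccatCCAATcgaacgccgcg
H2BC5 (chr6:26158037-26158063, plus strand, 74 bases before): ctaaaattaatCCAATcataaacgaaa
H2BC12 (chr6:27146922-27146948, minus strand, 82 bases before): cctaataaccaCCAATcagatacagga
H2BC11 (chr6:27132860-27132886, minus strand, 80 bases before): ctgaataactaCCAATcagacacaaga
H2BC21 (chr1:149886744-149886770, minus strand, 77 bases before): ccgcacacggaCCAATggaaatgaacg
H2BC4 (chr6:26123989-26124015, minus strand, 78 bases before): cagtttgtcttCCAATtaactaagagg
The octamers of 3 H2B genes lay between these boxes and the starts, and they are shown since the octamer is an element known from H2B promoters.
H2BC12 (chr6:27146886-27146915, minus strand, 49 bases before the start): ctcttcaccttATTTGCATgagaggtccta
H2BC11 (chr6:27132824-27132853, minus strand, 47 bases before): ctcttcaccttATTTGCATaagcgattcta
H2BC21 (chr1:149886710-149886739, minus strand, 46 bases before): tcggagccctaATTTGCATaaggtggttat

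**Figure D1:**
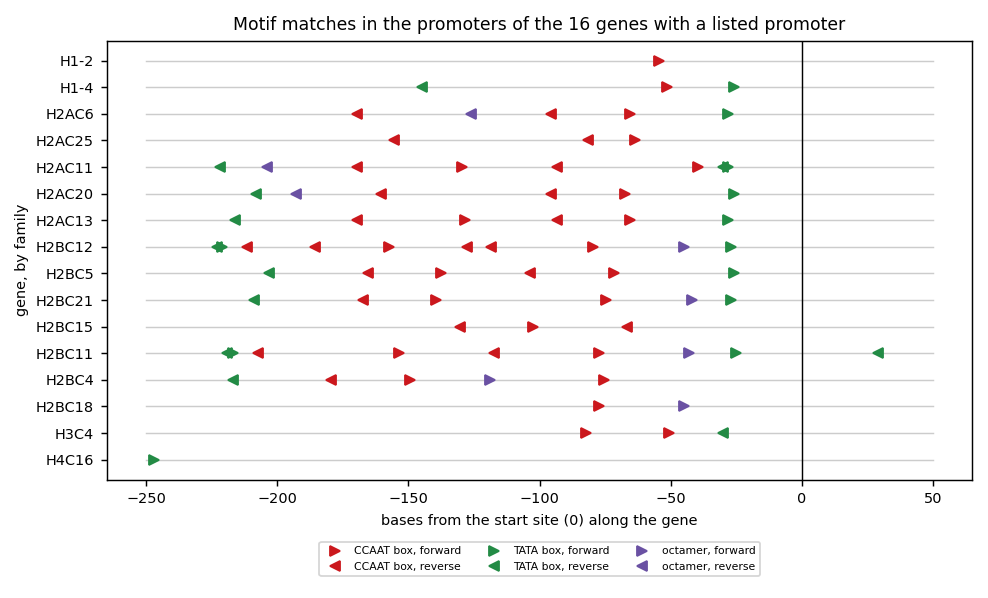
Positions of CCAAT boxes, TATA motifs and octamers in the promoters of 16 histone genes, as bases from the transcript start (x axis), with one gene per line and the direction of each triangle giving the strand of the match. CCAAT boxes appear in 15 of the 16 genes, and H4C16 has none.

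The histone genes were read most in siTotal2. Their summed level was 34.1 and 36.9 CPM in the mock libraries, 35.1 and 39.25 in siControl, 38.1 and 37.3 in siTotal1, 101.6 and 102.6 in siTotal2, 40.65 and 40.7 in siLong1, and 65.25 and 70.4 in siLong2. The siTotal2 and siLong2 libraries lay above the other 8, which spanned 34.1 to 40.7 CPM. Relative to siControl the sum was 0.955 ± 0.092 in mock, 1.01 ± 0.082 in siTotal1, 2.75 ± 0.22 in siTotal2, 1.09 ± 0.087 in siLong1 and 1.83 ± 0.18 in siLong2 (SD, n = 2). H2BC12 alone gave a large part of the sum, and without it the ratios were 0.814 for siTotal1, 2.4 for siTotal2 and 1.39 for siLong2. In mock replicate 1, which held the most reads of the 4 fibroblast markers, the histone sum was 34.1 CPM, against 36.9 in mock replicate 2, which held none. Whether the source of these marker reads bears on the histone level was not tested. In bulk RNA, fewer expressing cells and less RNA per cell cannot be told apart.

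**Figure D2:**
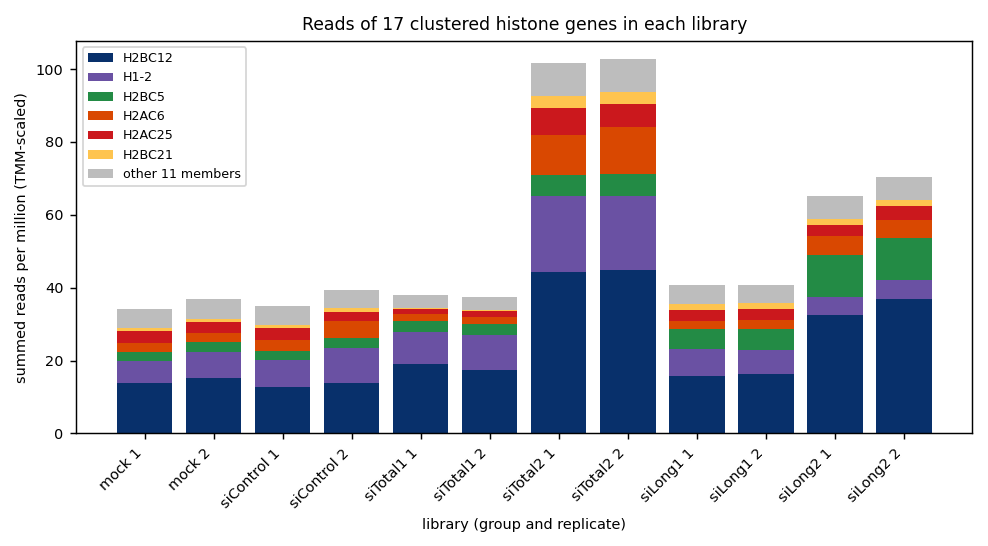
Summed level of the 17 histone genes (CPM, y axis) in each library (x axis), as stacked bars with 6 genes in colour and the other 11 in grey. The siTotal2 libraries sit at 101.6 and 102.6 CPM and the siLong2 libraries at 65.25 and 70.4, above every library of the other 4 groups.

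Between the siRNAs to one target, siTotal1 and siTotal2, 13 of the 15 histone genes with enough reads to be tested were lower in siTotal1 and none was higher, by edgeR's quasi-likelihood test at an adjusted p under 0.05. Over all 17730 tested genes, 20.6% were lower and 23.3% higher. The median difference over the 15 histone genes was -1.45 on the log2 scale, against 0.005 over all genes. H2AC13, H3C4 and H4C16 owed their passing of the low-count filter to groups in which they are high, and with no filter, over all 17 histone genes, 12 were lower and none was higher. Of the 13 calls, 9 held in every planned setting of tool, scaling, filter and left-out library in which the gene was tested. With mock replicate 1, siTotal2 replicate 1 and siLong2 replicate 2 left out, the median difference over 16 tested histone genes was -1.44. That leaves siTotal2 as 1 library, so only the size of the difference is given. The remaining siTotal2 library still holds 92 reads of the 4 fibroblast markers, so the trace was lowered and not removed. NFYA itself did not pass the test between these groups (log2 difference 0.04, SE 0.051, adjusted p = 0.584).

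Against siControl, siTotal2 raised 11 of 15 histone genes and lowered 0, where 22.6% of all tested genes were higher and 22.6% lower. Under siTotal1, 1 gene rose and 4 fell, where 22.9% of all tested genes were higher and 20.5% lower. The median log2 change over the histone genes was 1.07 for siTotal2 and -0.44 for siTotal1, and both comparisons share the siControl libraries. By family, siTotal2 raised 1 of 2 tested H1 genes, 4 of 5 H2A genes and 6 of 6 H2B genes, while H3C4 and H4C16, the tested H3 and H4 genes, did not pass. In 7 of the 15 genes both siTotal2 libraries lay above the other 10 libraries, which held for 6.61% of all tested genes, and in 5 of 15 both siTotal1 libraries lay below the other 10, which held for 6.16%. H4C16 is among these 5, and H2AC13 is among the 11 rises in siTotal2. Both owed their passing of the low-count filter to groups in which they are high, so the filter favoured these counts. Of the 11 rises in siTotal2, 7 held in every planned setting (H1-2, H2AC25, H2AC6, H2BC11, H2BC12, H2BC21 and H2BC5). Without the 3 libraries named above, and so with the remaining siTotal2 library alone, the median log2 change over 16 tested histone genes was 1.02 in siTotal2.

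Of the linker histones, which bind where DNA enters and leaves the nucleosome, H1-2 (ENSG00000187837, chromosome 6, 26055787 to 26056428 on GRCh38, minus strand, 1 exon) was read at 6.27 and 7.01 CPM in mock and at 7.31 and 9.62 in siControl. It was at 8.83 and 9.47 in siTotal1, 20.9 and 20.35 in siTotal2, 7.40 and 6.54 in siLong1, and 5.04 and 5.265 in siLong2. The siTotal2 libraries stood above all others and the siLong2 libraries below all others. H1-2 rose 2.44-fold in siTotal2 (log2 change 1.29, SE 0.0975, adjusted p = 2.02e-13 by edgeR) and did not pass in siTotal1 (0.11, SE 0.108, adjusted p = 0.422). The difference between the siRNAs was -1.17 (SE 0.0971, adjusted p = 2.62e-12). H1-4, another linker histone, was at 0.447 and 0.539 CPM in siControl, 0.305 and 0.224 in siTotal1 and 0.360 and 0.485 in siTotal2, groups that did not separate by the test (adjusted p = 0.227).

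The H2A genes, whose product pairs with H2B at the nucleosome surface, included 2 of the 4 genes that siTotal1 and siTotal2 moved in opposite directions. H2AC6 (chromosome 6, 26124145 to 26139116, plus strand, 2 exons) was at 2.499 and 2.43 CPM in mock, 3.15 and 4.61 in siControl, 1.86 and 1.79 in siTotal1, 11.1 and 13.04 in siTotal2, 2.29 and 2.57 in siLong1, and 5.07 and 4.84 in siLong2. The siTotal1 libraries were the lowest of the 12 and the siTotal2 libraries the highest. The log2 change of H2AC6 was -1.08 under siTotal1 (SE 0.175, adjusted p = 3.18e-06) and 1.64 under siTotal2 (SE 0.131, adjusted p = 6.1e-13). H2AC25 (chromosome 1, 228456979 to 228457873, minus strand) was at 3.41 and 3.06 CPM in mock, 3.13 and 2.53 in siControl, 1.42 and 1.57 in siTotal1, 7.42 and 6.33 in siTotal2, 2.91 and 2.89 in siLong1, and 2.92 and 4.05 in siLong2. It showed the same order, lowest in siTotal1 and highest in siTotal2, and lies outside the large chromosome 6 cluster. Its change was -0.92 in siTotal1 (SE 0.194, adjusted p = 0.000163) and 1.28 in siTotal2 (SE 0.151, adjusted p = 7.19e-09). H2AC11 was at 0.815 and 0.7005 CPM in siControl, 0.611 and 0.504 in siTotal1 and 1.83 and 1.25 in siTotal2, and it rose in siTotal2 (1.01, adjusted p = 0.00116) but at 1.39 and 1.59 CPM in mock it lay as high there as in siTotal2. H2AC13 had 3 to 8 reads in each mock, siControl and siTotal1 library and 20 and 16 in siTotal2, with 62.3% of its 50-base words also found in 1 other gene. H2AC20 was the H2A gene without a difference between the siRNAs (log2 difference 0.00, SE 0.353, adjusted p = 0.995), and that error leaves room for differences of either sign.

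All 6 tested H2B genes rose in siTotal2, and 2 of them fell in siTotal1, by edgeR. DESeq2 did not call the siTotal2 rise of H2BC4 (adjusted p = 0.083) or H2BC15 (adjusted p = 0.0669), and each was also lost in edgeR without 1 of the siControl or siTotal2 libraries. H2BC12 (chromosome 6, 27146418 to 27146798, minus strand, 1 exon of 381 bases), the histone gene with the most reads, was at 13.7 and 15.3 CPM in mock, 12.75 and 13.7 in siControl, 19.0 and 17.5 in siTotal1, 44.35 and 44.9 in siTotal2, 15.7 and 16.2 in siLong1, and 32.5 and 36.9 in siLong2. All siRNA groups lay above siControl. It rose 3.37-fold in siTotal2 (log2 change 1.75, SE 0.0722, adjusted p = 5.12e-21) and 1.38-fold in siTotal1 (0.46, SE 0.0788, adjusted p = 7.45e-06), which made it the single histone gene called in the same direction by both siTotal siRNAs. Of its 50-base words, 74.1% also occur in 1 or more of 10 other genes, so its reads could have been shared with other H2B genes in the authors' counting.

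H2BC21 (chromosome 1, 149884459 to 149886652, minus strand, 1 exon of 2194 bases) had the largest difference between the siTotal siRNAs among the 15 tested histone genes. It was at 0.873 and 0.987 CPM in mock, 0.946 and 1.05 in siControl, 0.361 and 0.336 in siTotal1, 3.13 and 3.24 in siTotal2, 1.78 and 1.75 in siLong1, and 1.70 and 1.415 in siLong2. No group of these overlapped siTotal1 or siTotal2. The change was -1.51 in siTotal1 (SE 0.306, adjusted p = 0.000103) and 1.67 in siTotal2 (SE 0.201, adjusted p = 9.57e-09), and the direct difference was -3.18 (SE 0.25, adjusted p = 5.12e-13). H2BC4 was called in the same opposite directions, at 0.4165 and 0.602 CPM in mock, 0.788 and 0.727 in siControl, 0.4998 and 0.252 in siTotal1 and 1.33 and 1.455 in siTotal2 (-1.004, adjusted p = 0.0215, and 0.88, adjusted p = 0.00933). The mock libraries overlapped siTotal1, and the fall of H2BC4 did not pass with mock as the control (-0.41, adjusted p = 0.41), by DESeq2 (adjusted p = 0.0847), without siControl replicate 1 (adjusted p = 0.0819) or without siTotal1 replicate 2 (-0.61, adjusted p = 0.248). H2BC11 was at 0.657 and 0.593 CPM in siControl, 0.472 and 0.448 in siTotal1 and 2.35 and 2.04 in siTotal2, and rose 3.50-fold in siTotal2 (SE 0.256 on the log2 scale, adjusted p = 2.67e-07). H2BC15 rose in siTotal2 by 0.83 (adjusted p = 0.00835) and its siTotal1 value was -0.03 (adjusted p = 0.952). In all, 4 genes (H2AC25, H2AC6, H2BC21 and H2BC4) were called in opposite directions by siTotal1 and siTotal2 against siControl. With mock as the control this held for H2AC25 and H2BC21, while the siTotal1 value of H2AC6 was -0.43 (adjusted p = 0.0566). The share of all tested genes called in opposite directions, or in the same direction, by both siRNAs to a target was not computed. Such counts of histone genes are therefore only a description.

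**Figure D3:**
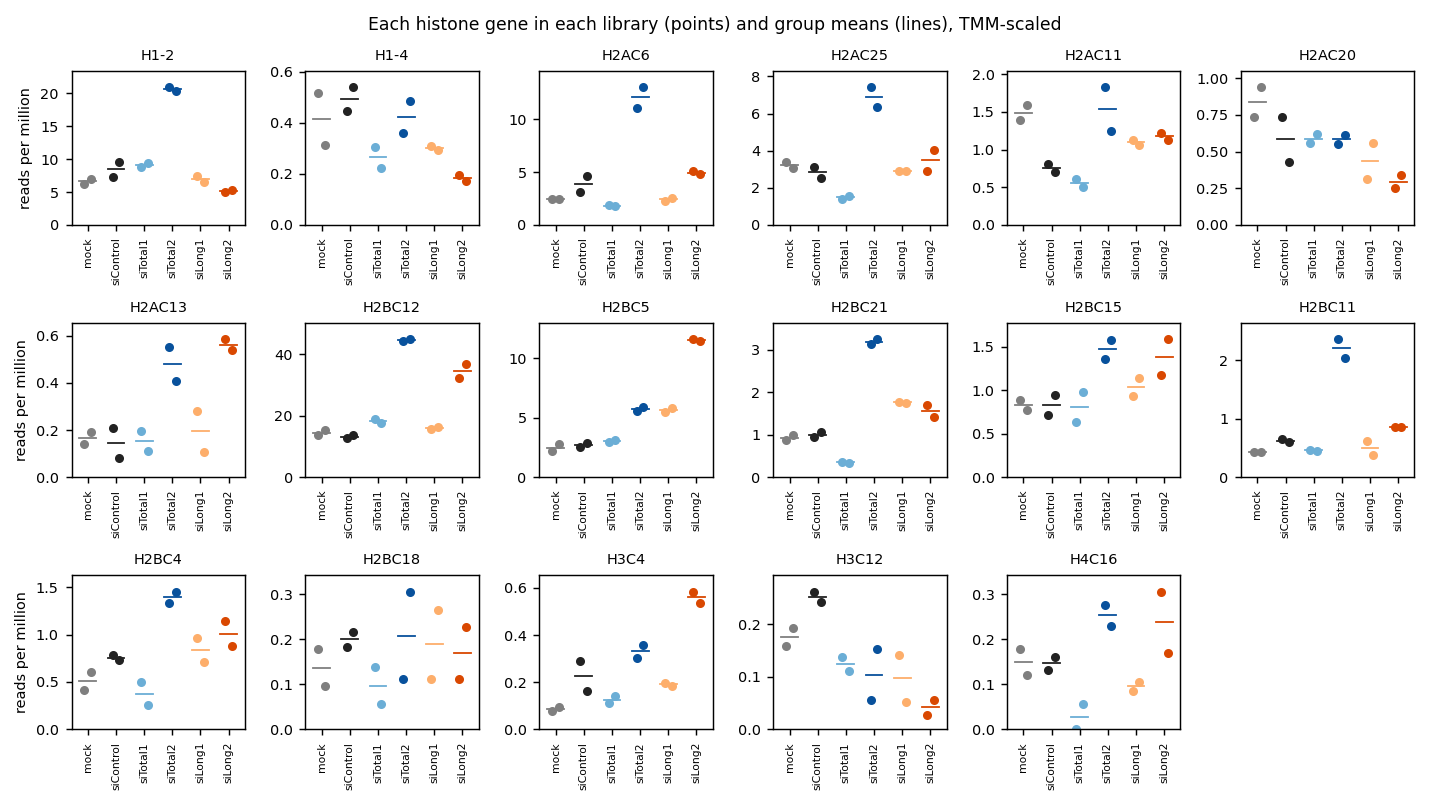
Level of each of the 17 histone genes (CPM, linear y axis from 0, scaled per gene) by group, with one point per library and a line at the group mean. The siTotal2 libraries are the highest for H2BC12, H1-2, H2AC6, H2AC25 and H2BC21, and the siLong2 libraries are the highest for H2BC5.

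Among the least read genes, H3C4, which encodes histone H3, had 11 and 6 reads in siControl, 4 and 5 in siTotal1, 11 and 14 in siTotal2 and 21 and 19 in siLong2. All of its 50-base words (100%) also occur in another gene, so its value is uncertain. H4C16, a histone H4 gene on chromosome 12, had 0 and 2 reads in siTotal1 and 10 and 9 in siTotal2, a ratio of 0.111 with a 95% exact interval of 0.0125 to 0.458 that covers counting error only. H2BC18 and H3C12 had too few reads to be tested. H3C12 had 10 and 9 reads in siControl and 1 and 2 in siLong2, a ratio of 0.167 (95% exact interval 0.0316 to 0.566).

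The siLong groups differed from each other in fewer of the histone genes. Of 15, 6 were lower and 1 was higher in siLong1 than in siLong2, where 27% of all tested genes were lower and 26.7% higher. Against siControl, 8 of 15 histone genes were higher and 3 lower in the libraries labelled siLong2, where 25.9% of all tested genes were higher and 26.9% lower. The siLong1 libraries had 3 genes higher and 2 lower, where 26.4% and 28.1% of all genes were, and the median over the histone genes was 0.03 there and 0.63 in siLong2. In siLong2, 4 of 11 calls held in every planned setting in which the gene was tested (H1-2, H2AC13, H2BC12 and H2BC5). In siLong1, 2 of 5 did (H2BC21 and H2BC5). H2AC13 and H3C4 are both among the 8 higher in siLong2 and the 6 lower in siLong1 than in siLong2. Both owed their passing of the low-count filter to groups in which they are high, so these calls were favoured in advance. H2AC13 was not tested under the filter of at least 50 counts. Without the 3 libraries named above, the median log2 change over 16 tested histone genes was 0.54 in siLong2, with 1 siLong2 library left in that comparison.

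H2BC5, an H2B gene on chromosome 6 (26158146 to 26171349, plus strand, 2 exons), was the histone gene that stood out in siLong. It was at 2.22 and 2.74 CPM in mock, 2.55 and 2.91 in siControl, 2.97 and 3.14 in siTotal1, 5.57 and 5.87 in siTotal2, 5.48 and 5.85 in siLong1, and 11.6 and 11.5 in siLong2. The siLong2 libraries were the highest of the 12, as they were for H3C4 (12.2% of all tested genes were so), and siTotal2 and siLong1 overlapped. H3C4 owed its passing of the low-count filter to groups in which it is high. H2BC5 did not depend on the filter in this way. It rose 4.22-fold in siLong2 (log2 change 2.08, SE 0.125, adjusted p = 1.29e-16), 2.08-fold in siLong1 (1.05, SE 0.136, adjusted p = 2.7e-08) and 2.10-fold in siTotal2 (1.07, SE 0.135, adjusted p = 2.92e-08), and it did not pass in siTotal1 (0.16, adjusted p = 0.414). H2BC12 also rose with both siLong siRNAs, and the change of 1.39 in siLong2 (adjusted p = 4.01e-18) was larger than that of 0.27 in siLong1 (adjusted p = 0.00412; difference -1.12, adjusted p = 1.32e-15). The siLong1 rise of H2BC12 did not pass without siControl replicate 1 (0.21, adjusted p = 0.0781) or with mock as the control (0.14, adjusted p = 0.122). For H2BC21 the rise was 0.82 in siLong1 (adjusted p = 0.00185) and 0.64 in siLong2 (adjusted p = 0.0165), though DESeq2 did not call the latter (adjusted p = 0.0843), and these did not differ by the test (log2 difference 0.18, SE 0.206, adjusted p = 0.488).

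In the libraries labelled siLong2 both tested H1 genes fell while 4 of 6 tested H2B genes rose by edgeR. Of these H2B rises, those of H2BC12 and H2BC5 held in every planned setting, and DESeq2 did not call that of H2BC15 (adjusted p = 0.0944). H1-2 fell by 0.71 (SE 0.118, adjusted p = 3.23e-06) and H1-4 fell by 1.42 (SE 0.464, adjusted p = 0.00994), from 0.447 and 0.539 CPM in siControl to 0.195 and 0.170. In both genes the siLong2 libraries lay below the other 10, which held for 12.1% of all tested genes. H2AC20 was the other gene that fell in siLong2 (-0.98, adjusted p = 0.0412), from 0.736 and 0.431 CPM in siControl to 0.251 and 0.340. That call was lost by DESeq2 (adjusted p = 0.151), with no filter (adjusted p = 0.0626), without siLong2 replicate 1 (adjusted p = 0.215) or 2 (adjusted p = 0.0636), and without siControl replicate 1, where the change was -0.55 (adjusted p = 0.428). DESeq2 did not call the fall of H1-4 either (adjusted p = 0.0738). The neighbour of H2AC20, H2BC21, whose start lies 323 bases away on the other strand, rose. H2AC6 was called in opposite directions by the siLong siRNAs, lower in siLong1 (-0.67, adjusted p = 0.000721) and higher in siLong2 (0.35, adjusted p = 0.041), but at 2.499 and 2.43 CPM the mock libraries lay within the siLong1 range of 2.29 to 2.57.

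**Figure D4:**
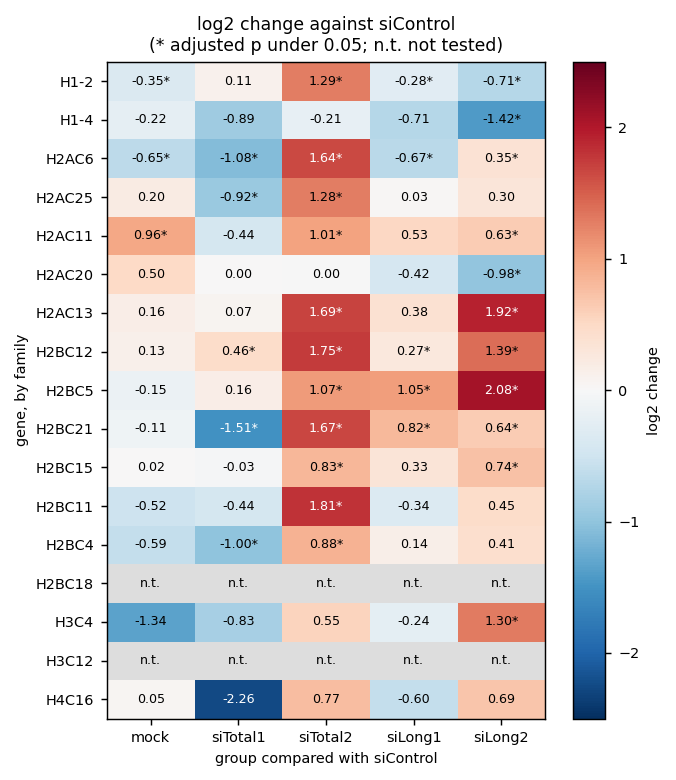
Log2 change against siControl of the histone genes (1 gene per line, H2BC18 and H3C12 not tested) in mock and in each siRNA group, in colour and in digits, with an asterisk where the adjusted p was under 0.05. Called rises fill most of the siTotal2 column, while siTotal1 has 4 called falls and 1 called rise.

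The controls differed from each other in some of these genes. Both mock libraries lay below the other 10 in H3C4 (4.06% of all tested genes did so), and both siControl libraries did in H2BC12 (9.21%). H3C4 owed its passing of the low-count filter to groups in which it is high. For H2BC12 the margin was lost in rounding, since siControl replicate 2 and mock replicate 1 both read 13.74 CPM. By edgeR, mock against siControl did not pass for H3C4 (adjusted p = 0.0712) or H2BC12 (adjusted p = 0.202). Mock had 1 histone gene higher than siControl and 2 lower, where 19.5% and 20.3% of all tested genes were. H2AC11 was higher in mock (0.96, SE 0.248, adjusted p = 0.00176), H1-2 lower (-0.35, SE 0.109, adjusted p = 0.0086) and H2AC6 lower (-0.65, SE 0.158, adjusted p = 0.000981). The siControl libraries were themselves spread in both of the latter, with replicate 2 higher. Without siControl replicate 2, H1-2 no longer passed in mock (-0.14, adjusted p = 0.455) or in siLong1 (-0.08, adjusted p = 0.646), and neither did H2AC6 in mock (-0.35, adjusted p = 0.162) or siLong1 (-0.39, adjusted p = 0.0963). Without siControl replicate 1, H2AC6 did not pass in siLong2 (0.10, adjusted p = 0.658). With mock in place of siControl, a setting chosen after seeing the data, siTotal2 raised 11 genes and lowered none, where 14.1% of all tested genes were higher, and siTotal1 raised 2 and lowered 4, where 22.1% and 18.7% were higher and lower. Those 4 were not all the same genes as the 4 against siControl, with H2AC11 and H4C16 in place of H2AC6 and H2BC4. H4C16, and H2AC13 and H3C4 for the rises in siTotal2, owed their passing of the low-count filter to groups in which they are high.

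Averaged over the siRNAs of a target, fewer histone genes passed. In siTotal as a whole against siControl, 4 of 15 histone genes were higher and 0 lower, where 22% of all tested genes were higher: H2BC12 (1.11, adjusted p = 3.02e-16), H1-2 (0.70, adjusted p = 4.9e-08), H2BC11 (0.68, adjusted p = 0.0339) and H2BC5 (0.62, adjusted p = 0.000106). In siLong against siControl 4 were higher and 2 lower, where 25.1% and 28.4% of all genes were. The 4 were H2BC5 (1.57, adjusted p = 4.87e-14), H2BC12 (0.83, adjusted p = 5.4e-13), H2BC21 (0.73, adjusted p = 0.00185) and H2AC11 (0.58, adjusted p = 0.0362), and the others were H1-2 (-0.50, adjusted p = 4.73e-05) and H1-4 (-1.06, adjusted p = 0.0152). Between siTotal and siLong, 5 genes were higher in siTotal and 2 lower, where 28.1% and 25.3% of all genes were, with the largest difference each way in H1-2 (1.198, adjusted p = 1.51e-15) and H2BC5 (-0.95, adjusted p = 1e-11). The others higher in siTotal were H2AC20 (0.70, adjusted p = 0.0321), H2BC11 (0.63, adjusted p = 0.0149), H2AC6 (0.44, adjusted p = 0.00163) and H2BC12 (0.28, adjusted p = 1.38e-05), and the other lower one was H2BC21 (-0.65, adjusted p = 0.0019). Without the 3 libraries named above, and so with 1 siTotal2 library, the change of H2BC11 in siTotal against siControl was 0.63. DESeq2 called neither H2BC11 in siTotal (adjusted p = 0.148), H2AC11 in siLong (adjusted p = 0.135) nor H1-4 in siLong (adjusted p = 0.101), and none of the 3 held in edgeR without siControl replicate 2 (adjusted p = 0.185, 0.223 and 0.134). In siTotal against siLong, DESeq2 did not call H2AC20 (adjusted p = 0.134) or H2BC11 (adjusted p = 0.0853). Where each siRNA sequence was counted as 1 replicate, mock and siControl also counted as 1 replicate each and together formed the control. Almost no gene then passed by edgeR in siTotal or siLong against that control, or in siTotal against siLong (0, 1 and 0 of 19088). None of the histone genes did. At an unadjusted p under 0.05 there were 2, 3 and 2 of the 17 histone genes and 423, 2009 and 1716 of all genes. Relative to mock, siTotal had 5 genes higher and 1 lower (16.6% and 14.2% of all genes) and siLong had 6 higher and 1 lower (24.4% and 26.4%).

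Several histone genes stand head to head, with an H2A and an H2B gene transcribed away from a shared stretch, and 3 such pairs had both genes in the set. The starts of H2AC6 and H2BC4 lie 219 bases apart, and both were lower in siTotal1 than in siTotal2 (-2.72 and -1.88), the comparison that needs no control. The starts of H2AC11 and H2BC11 lie 292 bases apart, and both rose in siTotal2 and were lower in siTotal1 than in siTotal2 (-1.45 and -2.25). In the third pair, H2BC21 rose 3.19-fold in siTotal2 while H2AC20 was at 0.554 and 0.613 CPM, within the siControl range of 0.431 to 0.736.  Overlapping annotation limits 5 of the 17 genes (H2BC15, H2BC18, H2BC5, H3C12 and H3C4), whose reads could be assigned to another gene.

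The annotation gives 10 of the 17 genes a transcript of at least 1000 bases or at least 2 exons, features known from polyadenylated histone transcripts. Of the 8 such genes tested, 7 rose in siTotal2 and all 8 were lower in siTotal1 than in siTotal2. Of the 7 tested genes without such a transcript, 4 rose and 5 were lower. H4C16 among the 8, and H2AC13 and H3C4 among the 7, owed their passing of the low-count filter to groups in which they are high. A list of 6 genes was drawn up from general knowledge as also giving polyadenylated mRNA (H1-2, H2AC6, H2BC4, H2BC5, H2BC12 and H2BC21). Earlier results of these data were known by then, so the counts for this list are only a description. All 6 listed genes rose in siTotal2, where 22.6% of all tested genes were higher. In siTotal1 1 rose and 3 fell, where 22.9% were higher and 20.5% lower. H2BC4, which is in that list, was not called by DESeq2 in either comparison. Whether the 2 kinds of gene differ was not tested.

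**Figure D5:**
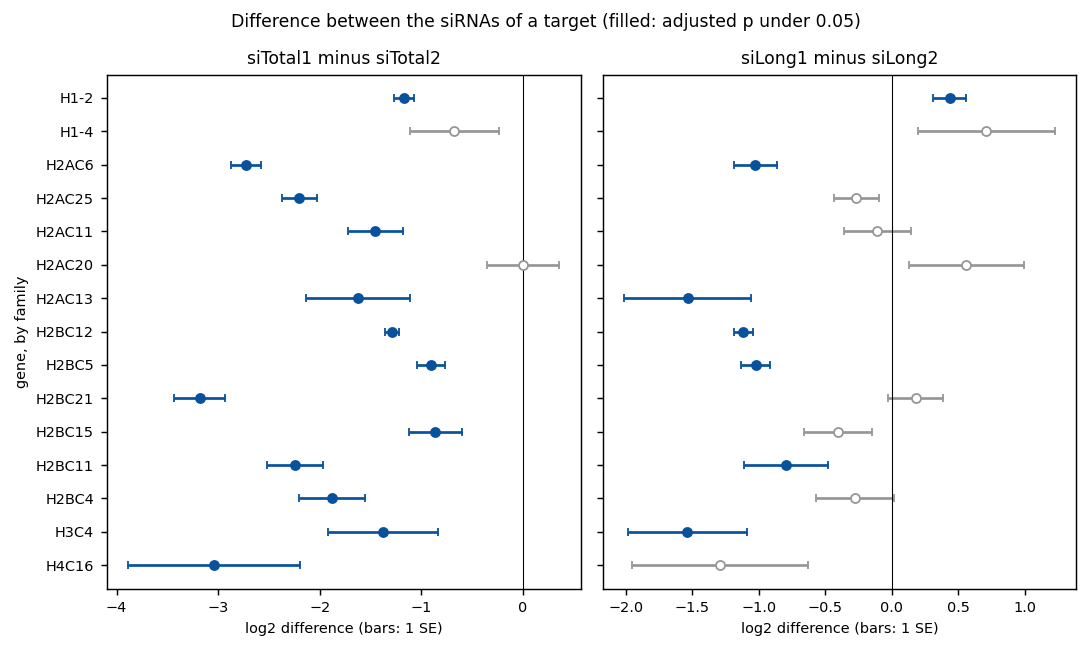
Log2 difference between siRNAs to one target for each of the 15 tested histone genes, siTotal1 minus siTotal2 (left) and siLong1 minus siLong2 (right), with bars of 1 standard error and filled points where the adjusted p was under 0.05. For siTotal, 14 of the 15 values lie below 0 and 13 pass the test, and for siLong 6 lie below and 1 above 0 among those that pass.

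Between the siTotal siRNAs, the genes that drive and process histone transcripts had smaller median differences than the histone genes, with calls in both directions. Over all tested genes, 23.3% were higher and 20.6% lower in siTotal1 than in siTotal2, or 43.9% in either direction. In either direction, 50% of the transcription list below was called and 63.6% of the processing list. For the chaperone and S phase lists it was 57.1% and 52.6%. Of 10 genes for histone transcription, 2 were higher and 3 lower in siTotal1 than in siTotal2, with a median of -0.00. NPAT, the histone-specific coactivator, was at 35.6 and 34.4 CPM in siTotal1, 40.9 and 38.4 in siTotal2 and 35.3 and 38.9 in siControl, and the difference between siTotal1 and siTotal2 passed but was small (-0.18, adjusted p = 0.0118). It fell in siLong1 (-0.56, adjusted p = 6.53e-10) and in siLong2 (-0.35, adjusted p = 7.43e-06). E2F1, which activates G1/S genes, fell in siLong1 (-0.56) and siLong2 (-0.91) and was lower in siTotal1 than in siTotal2 (-0.24, adjusted p = 0.000718). CDK2, the kinase that phosphorylates NPAT, was higher in siTotal1 than in siTotal2 (0.47, adjusted p = 1.99e-11).

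Of 22 genes for the processing and decay of histone mRNA ends, 8 were higher and 6 lower in siTotal1 than in siTotal2, with a median of 0.10. SLBP, which binds the stem-loop, did not pass (-0.04, adjusted p = 0.473). ZNF473, a zinc finger protein of the U7 processing machinery, fell in siTotal2 (-1.07, adjusted p = 6.24e-17) and siLong2 (-1.08, adjusted p = 3.99e-17) and by less in siTotal1 (-0.49, adjusted p = 1.19e-08), while it did not pass in siLong1 (-0.09, adjusted p = 0.185). In mock, ZNF473 was lower than in siControl as well (-0.92, adjusted p = 2.4e-15). Whether its level bears on the histone genes was not tested. UPF1, which acts in histone mRNA decay, fell in all siRNA groups (-0.55 in siTotal1, -0.35 in siTotal2, -0.55 in siLong1 and -0.30 in siLong2), but it was also lower in mock than in siControl (-0.36, adjusted p = 2.05e-09). PAPOLA, the canonical poly(A) polymerase, fell in siLong1 (-0.73) and siLong2 (-0.40) and did not pass with either siTotal siRNA (adjusted p = 0.453 and 0.216).

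Of 21 histone chaperone and deposition genes, 6 were higher and 6 lower in siTotal1 than in siTotal2, with a median of 0.01. ASF1A, an H3-H4 chaperone, rose in all siRNA groups, by 0.79, 0.70, 0.45 and 0.74 in the order siTotal1, siTotal2, siLong1 and siLong2, and mock was also above siControl, by 0.54 (adjusted p = 1.72e-08). Of 19 S phase genes, 3 were higher and 7 lower in siTotal1 than in siTotal2, with a median of -0.09. Against siControl, 14 of these 19 were higher and 2 lower in siTotal2, where 22.6% of all tested genes were higher and 22.6% lower. In siTotal1, 11 were higher and 3 lower, where 22.9% and 20.5% of all tested genes were. These directions turned with the control: mock too had 14 higher and 2 lower than siControl, where 19.5% and 20.3% of all tested genes were, and against mock siTotal had 1 higher and 11 lower, where 16.6% and 14.2% were. In siLong2, 2 were higher and 15 lower than in siControl, where 25.9% and 26.9% of all tested genes were. RRM2, a subunit of ribonucleotide reductase, fell in all siRNA groups, from -0.34 in siTotal2 to -1.09 in siLong2, and was also lower in mock (-0.17, adjusted p = 0.00116), and CDC6, which licenses replication origins, fell by 1.09 in siLong1 and by 0.60 in siLong2. In the libraries labelled siLong2 the summed histone level was above siControl while most of the S phase genes listed were below it. Of the NF-Y subunits, NFYB and NFYC were higher in siTotal1 than in siTotal2 by 0.15 (adjusted p = 0.0273) and 0.21 (adjusted p = 0.000291).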

How the data were processed

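RNA from 12 HCT116 cultures in 6 groups was sequenced as stranded libraries of polyadenylated RNA. The deposited table holds 12 columns of raw read counts per Ensembl gene made by the authors, per the submitters' processing notes with STAR 2.4.0f1, featureCounts and hg19. Strand setting, multi-mapped reads and annotation release were not given in the sources used here. Of the 63677 identifiers, 52181 have a current symbol. Positions are GENCODE 29 on GRCh38 matched by identifier, and promoter sequences are RefSeq GRCh38.p14.

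The filterByExpr rule (at least 10 counts, total at least 15) left 17730 genes, which were scaled by TMM and fitted with the quasi-likelihood model of edgeR 4.0.16 in R 4.3.3 over the 6 groups, with 6 residual degrees of freedom and a common biological coefficient of variation of 3.57%. Benjamini-Hochberg adjustment ran over all tested genes, and a gene was called at an adjusted p under 0.05. Changes are on the log2 scale, standard errors are the change divided by the square root of F, and CPM values are TMM-scaled. DESeq2 1.42.0 was an alternative. The 2 libraries of a group were never alike within counting noise (chi-square over its degrees of freedom, 1.87 to 7.9). Precision of the least read genes is limited by counts of 0 to 21 reads per library.

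The genes named are the most read members of each family, the largest called rises and falls, those with opposite calls and up to 4 genes of each other list, with NPAT, SLBP and the NF-Y subunits. The members and lists were chosen with earlier results of these data known.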

Additional observations from a re-analysis of the deposited data

Results flagged for a closer look

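The differences between siRNAs to one target that passed edgeR's quasi-likelihood test were taken as differences between groups under the same contrast. For siTotal1 minus siTotal2 there were 13, each on the log2 scale: H2BC21 -3.18, H4C16 -3.04, H2AC6 -2.72, H2BC11 -2.25, H2AC25 -2.20, H2BC4 -1.88, H2AC13 -1.62, H2AC11 -1.45, H3C4 -1.38, H2BC12 -1.29, H1-2 -1.17, H2BC5 -0.91 and H2BC15 -0.86. The H4C16 value rests on 2 reads in siTotal1 and 19 in siTotal2. Of these 13 calls, 9 held in all planned settings in which the gene was tested (H2BC21, H2AC25, H1-2, H2BC4, H2AC6, H2BC5, H2BC11, H2AC11 and H2BC12). For siLong1 minus siLong2 there were 7: H3C4 -1.54, H2AC13 -1.53, H2BC12 -1.12, H2AC6 -1.03, H2BC5 -1.02, H2BC11 -0.79 and H1-2 0.43. With mock replicate 1, siTotal2 replicate 1 and siLong2 replicate 2 left out, the siTotal difference was -1.48 for H3C4 and -1.39 for H2AC13. The siLong difference of H2BC11 was then -0.81. Each of these 3 groups is left with 1 library, so only sizes are given.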

How the results depend on the processing

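Of 3496 changes of single genes recomputed under the alternatives, 3316 kept their side of the threshold or had no adjusted p under the alternative. Another 140 lost the call, 37 gained one and 3 reversed. Direction was compared only for changes called in the main fit or under the alternative, so changes of sign in uncalled genes are not counted. The reversals were H2BC21 in siTotal against siLong (0.0919, each siRNA sequence as 1 replicate), H1-2 in siLong1 (0.0733, mock as the control) and H2AC11 in siLong2 (-0.33, mock as the control). With each siRNA sequence as 1 replicate, 0 histone genes were called in siTotal or siLong against mock and siControl together, or in siTotal against siLong. Of all 19088 genes, 0, 1 and 0 were called. For siLong2 against siControl, 7 were called with at least 50 counts in at least 2 libraries (9 tested) and 4 by DESeq2. For siLong1, 3 were called with mock as the control, and for siLong1 against siLong2 DESeq2 called 4. DESeq2 called 10 for siTotal1 against siTotal2 and 8 for siTotal2 against siControl. Without the most read gene the summed ratio was 0.814 for siTotal1, 2.4 for siTotal2 and 1.39 for siLong2. Leaving out 1 library at a time gave 3 to 4 calls in siTotal against siControl, 5 to 7 in siLong against siControl, 6 to 7 in siTotal against siLong, 1 to 3 in mock against siControl, 5 to 6 in siTotal against mock, 6 to 9 in siLong against mock, 4 to 6 in siTotal1, 9 to 11 in siTotal2, 3 to 5 in siLong1, 6 to 11 in siLong2, 10 to 13 in siTotal1 against siTotal2 and 5 to 7 in siLong1 against siLong2. The lowest counts came without siControl replicate 2 for mock (1) and siLong1 (3), and without siControl replicate 1 (6), siLong2 replicate 1 (7) or siLong2 replicate 2 (6) for siLong2. The cause was not tested. Replicate numbers did not pair the samples (correlation of deviations between -0.085 and 0.099 over 15 pairs of groups), and with the replicate number as a block 13 were called in siTotal1 against siTotal2, 11 in siTotal2 and 8 in siLong against siControl.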

Other observations

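Over the 12 libraries, the genes outside the histone set whose log2 CPM followed H2BC12 most closely, among 12347 ranked, were CMTM6 (Pearson r 0.977), PLEKHB1 (0.949) and IFIT1 (0.946). This is a description of libraries that share groups and siRNAs, given with no test.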
